A study of Mus musculus with 23 samples.

Results

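Subclones 3 and 6 of Lewis lung carcinoma (LLC), a mouse lung tumour cell line that grows after transplantation, were compared on Affymetrix arrays, which measure RNA by its binding to sets of short probes. Subclone 3 had 3 arrays and subclone 6 had 2, together 5 of the 23 arrays of a series of 8 subclones. The arrays were taken by the subclone named in their titles. Both subclones were isolated from the parental line by limiting dilution, kept in DMEM with 10% FBS and Pen/Strep, and held for 24 h in a medium free of serum before RNA was extracted. All 8 subclones shared these conditions, and the labels name no strain, genotype, drug or parental sample. Each subclone is 1 isolate, so its arrays repeat that isolate. The titles call them biological replicates without saying whether they came from separate cultures, and the p-values measure the spread between such arrays. The pair was chosen by measured values of these arrays, since earlier results gave it the fewest differing genes of all pairs of subclones. The number of genes that differ is therefore a description of the pair, and nothing was read from its size.

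Levels are given as log2(intensity + 16), with 1 probe set per gene, and differences are subclone 3 minus subclone 6 on the same scale. The constant of 16 makes differences of weakly detected genes smaller than they are. Levels under 5.3, an intensity of 24, were treated as the floor of the arrays, since no detection calls were used. A gene was called when its Benjamini-Hochberg adjusted p from limma was under 0.05 and its difference was at least 1, which is 2-fold. Array medians were 40.83 to 44.42 in intensity for subclone 3 and 43.12 to 44.01 for subclone 6, within the 40.83 to 45.74 of all arrays. Between arrays, the root mean square difference over 18193 genes was 0.291 to 0.336 across the pair. It was 0.216 to 0.242 among the arrays of subclone 3, and 0.241 between those of subclone 6.

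Tumour lines kept in culture hold cells that differ in stable ways, and subclones isolated from them carry such differences forward. Genes for secreted proteins are of interest in a medium free of serum, since that is where tumour cells release the factors that act on other tissues. Bone morphogenetic proteins (BMPs) signal through SMAD proteins and are held in check outside the cell by binding proteins such as follistatin and gremlin. Collagens, proteoglycans and the proteases that cut them shape the matrix around a tumour.

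In the pair, 101 genes were called, 37 higher and 64 lower in subclone 3, which is 0.555% of the 18193 genes tested (0.203% higher and 0.352% lower). The median size of these differences was 1.28, with 17 genes at 2 or more and 4 at 3 or more. The 4 were Bmp2 and Afp, higher in subclone 3, and Pcbd1 and Glrb, lower in subclone 3. At an adjusted p under 0.05 alone, 1618 genes were higher (8.89%) and 1843 lower (10.1%). The arrays of the pair did not overlap for 7194 genes (39.5%), and for all 101 called genes. In 35 called genes, the lower of the 2 means lay under the floor, so their fold depends on the constant and has no firm upper end.

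**Figure D1:**
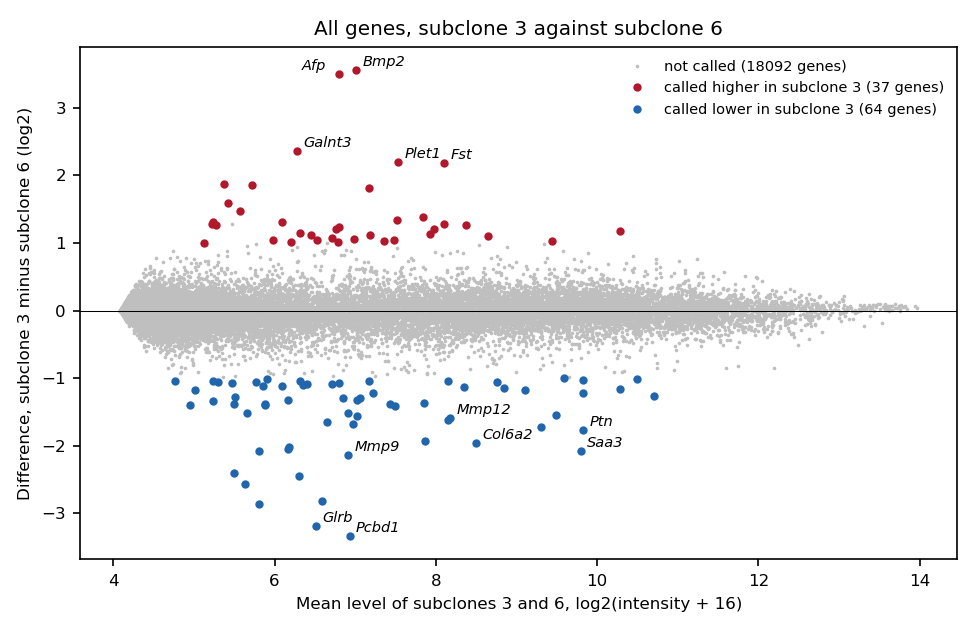
Difference between subclone 3 and subclone 6 (log2, vertical axis) against the mean level of the pair (log2(intensity + 16), horizontal axis), with 1 point per gene. The 37 genes called higher in subclone 3 are in red, the 64 called lower in blue and the others in grey; Bmp2 and Afp lie highest, Pcbd1 and Glrb lowest.

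Bmp2 encodes a BMP ligand, and Afp encodes alpha-fetoprotein, the main plasma protein of the fetal liver and yolk sac. Bmp2 was at 8.75, 8.83 and 8.78 on the arrays of subclone 3, against 5.36 and 5.11 in subclone 6, a difference of 3.55. Afp was at 8.47, 8.48 and 8.70 in subclone 3, against 5.19 and 4.91 in subclone 6, a difference of 3.50. The arrays of the pair lay far apart for both genes, and those of subclone 6 were near or under the floor. Mmp12, the macrophage metalloelastase that degrades elastin, ran the other way, at 7.46, 7.30 and 7.40 in subclone 3 and 8.89 and 9.06 in subclone 6, a difference of -1.59. These 3 genes were given as marks of the pair with their values known, and no test of their own is reported. They are still included in the counts of called genes and of list members, so those counts hold genes chosen by their values. With constants of 1 and 64, the difference of Afp was 4.32 and 2.38, and that of Bmp2 4.24 and 2.51.

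The remaining subclones place these 3 genes differently. For Afp, subclone 3 was above every other array, and the means of the other 6 subclones ran between 5.06 and 7.51, with subclones 24 and 2 (6.78) highest. For Bmp2, subclone 3 lay among the high subclones 2, 28, 18 and 19 (9.55, 9.44, 8.41 and 7.57), and subclone 6 near subclones 23 and 24 (4.59 and 4.82). For Mmp12, subclone 3 lay between subclones 28 (8.06) and 23 (5.71), and subclone 6 between subclones 2 (10.47) and 28. Afp had 4 more probe sets, with differences of 3.42, 3.02, 2.56 and -0.10, the last of them under the floor in both subclones.

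The upstream sequence of Afp is shown because it holds a motif of the hepatic factor HNF1, whose dimerization cofactor is encoded by Pcbd1, the gene with the lowest difference. The 150 bases before the start of Afp (RefSeq, GRCm38.p6, chr5:90490564-90490713, plus strand) carry GTTAATNAT, the first letters of the HNF1 consensus, in capitals.
Afp: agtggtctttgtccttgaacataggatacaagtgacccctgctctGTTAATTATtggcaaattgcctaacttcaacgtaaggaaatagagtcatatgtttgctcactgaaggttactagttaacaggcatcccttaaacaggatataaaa
The match starts 105 bases before the start of the gene. Searched on both strands, these letters occur in 0.484% of 32851 windows of this length in the same table. The match describes the sequence and shows no binding, and a link between Pcbd1 and Afp was not tested.

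Pcbd1 encodes a dehydratase that recycles the tetrahydrobiopterin cofactor and also binds HNF1. It was at 5.33, 5.29 and 5.17 in subclone 3, against 8.66 and 8.54 in subclone 6 (difference -3.33 ± 0.073 SE, limma adjusted p = 3.13e-15). All 3 arrays of subclone 3 were below every other array of the series. Subclone 2 was also low, at 5.91, whereas subclone 6 was close to the remaining 5, at 8.17 to 8.68. The related Pcbd2 did not pass (difference -0.07, adjusted p = 0.301).

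Of 31 measured oncofetal and hepatic genes, including known regulators of Afp, 2 were higher and 3 lower at an adjusted p under 0.05, and 14 were under the floor in both subclones. These shares, 6.45% and 9.68%, lay close to the 8.89% and 10.1% of all genes, and the median difference was -0.08, against -0.01 over all genes. The higher genes were Afp, a mark of the pair, and Igf2bp1, an RNA binding protein gene of fetal tissue. Igf2bp1 had a difference of 0.18 that another of its probe sets, at a level of 7.30 in both, did not show. Zhx2, a repressor of Afp in mouse liver, was at 7.54, 7.40 and 7.31 in subclone 3 and 7.94 and 7.75 in subclone 6, a difference of -0.42 ± 0.070 (adjusted p = 3.09e-04). The albumin gene Alb, next to Afp in the genome, had a mean level of 4.85 in subclone 3 and 5.11 in subclone 6, and its neighbour Afm did not pass (adjusted p = 0.197). Foxa2 and Zbtb20, further regulators of liver genes, had differences of 0.02 and 0.05 that did not pass. The count of higher genes was 1 without subclone 3 replicate 3 or subclone 6 replicate 2, and that of lower genes was 1 without subclone 3 replicate 1.

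Among other genes of the BMP and TGF-beta families, 2 antagonists were higher in subclone 3 and 2 ligands of the TGF-beta branch lower. Fst, encoding follistatin, which binds activins and BMPs, was at 9.19, 8.92 and 9.49 in subclone 3 and 7.17 and 6.85 in subclone 6 (difference 2.18 ± 0.155 SE, limma adjusted p = 2.01e-08). All arrays of subclone 3 were above every other array of the series, and a second probe set of Fst gave 1.87. Grem1, the BMP antagonist gremlin, was at 11.06, 11.02 and 11.11 in subclone 3 and 10.40 and 10.62 in subclone 6, a difference of 0.55 ± 0.074. Noggin (Nog), another BMP antagonist, was at the floor in both and did not pass.

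Of 39 measured ligands, receptors, inhibitors and targets of this family, 4 were higher (10.3%) and 10 lower (25.6%), with a median of -0.04. The shares over all genes were 8.89% and 10.1%. The lower genes included the ligands Tgfb2 (difference -0.77) and Tgfb3 (-0.39), the receptors Tgfbr2 and Tgfbr3 (-0.30 each) and Bmpr2 (-0.24), and Smad7, the inhibitory SMAD (-0.56). A second probe set of Tgfbr3 went the other way, by 0.52. Id2, a target of BMP signalling in many cells, was at 9.52, 9.79 and 9.81 in subclone 3 and 10.95 and 10.79 in subclone 6 (difference -1.16 ± 0.074, adjusted p = 5.43e-09). Id2 was higher in subclone 6 than on every array of the other subclones. The related targets Id1, Id3 and Id4 had differences of 0.12, 0.09 and 0.13, none of which passed. The activin subunit genes Inhba and Inhbb and the ligand genes Bmp4 and Bmp7 did not pass either. The count of lower genes was 6 without either array of subclone 6, and 1 on the 5 arrays of the pair alone. Tgfb2, which was under the floor in subclone 3, did not pass without subclone 3 replicate 1 or 2, nor on the 5 arrays alone. Without subclone 6 replicate 1 or 2, its difference was -0.85 or -0.69. These fits rest on a single array of subclone 6, so only the size is given and not whether Tgfb2 passed. The other probe sets of Tgfb2 gave -0.12, -0.04 and -0.39, at or under the floor in both subclones.

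**Figure D2:**
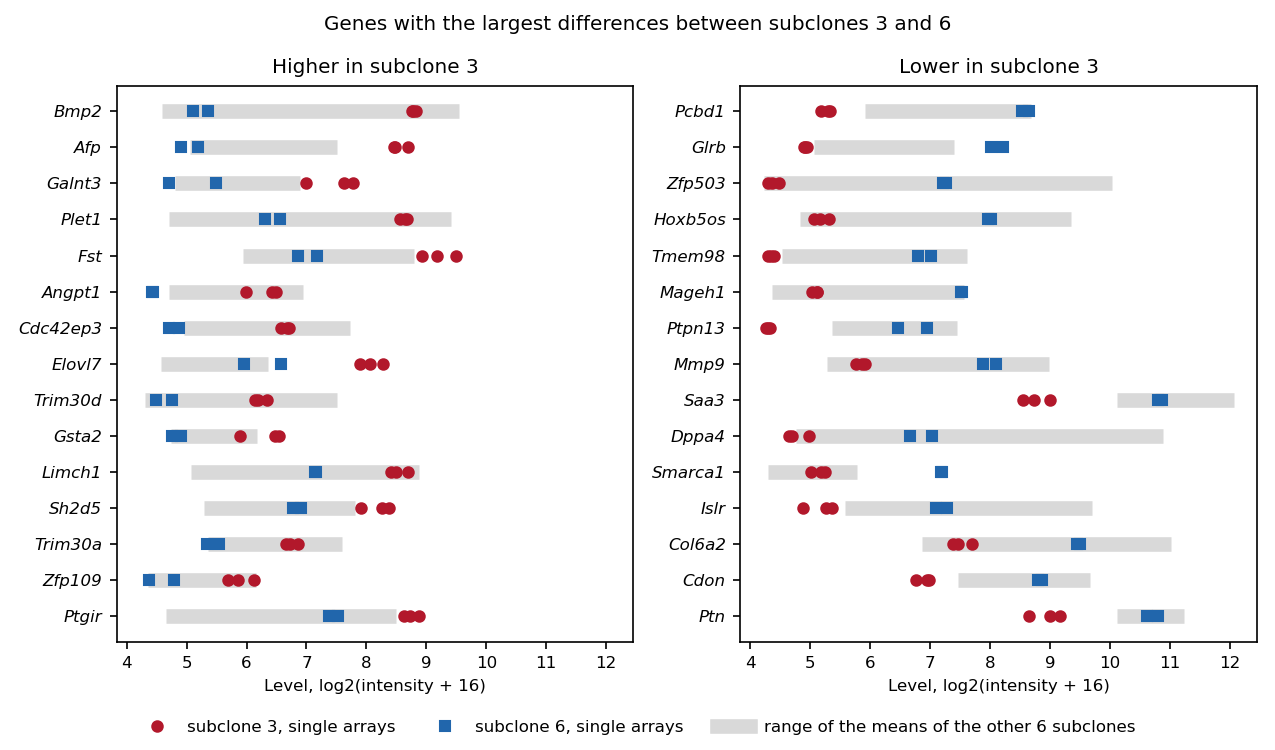
Levels (log2(intensity + 16)) of the 15 genes with the largest differences in each direction, with 1 point per array. Red circles are the 3 arrays of subclone 3, blue squares the 2 of subclone 6 and the grey bar the range of the other 6 subclone means. The arrays of the pair do not overlap in these 30 genes, as in all 101 called genes and in 39.5% of all genes.

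After Bmp2 and Afp, the largest higher differences were those of Galnt3, Plet1, Fst, Angpt1, Cdc42ep3 and Elovl7, in that order. Galnt3, which starts O-glycan chains on secreted proteins, was at 7.62, 6.99 and 7.77 in subclone 3 and 5.49 and 4.71 in subclone 6 (difference 2.36 ± 0.292, limma adjusted p = 1.51e-05). Its 2 other probe sets gave 0.30 and 0.02, at levels near the floor. Plet1, a surface protein of placental and epithelial progenitor cells, was at 8.64, 8.57 and 8.68 in subclone 3 and 6.56 and 6.31 in subclone 6, a difference of 2.20 ± 0.111. Subclones 28 and 19 were also high in Plet1, at 9.41 and 8.09. Cdc42ep3, an effector of CDC42 in the cytoskeleton, was at 6.67, 6.57 and 6.71 in subclone 3 and 4.88 and 4.70 in subclone 6, a difference of 1.86 ± 0.114, with the arrays of subclone 6 under the floor. Elovl7, a fatty acid elongase, was at 8.07, 7.90 and 8.27 in subclone 3 and 6.57 and 5.96 in subclone 6, a difference of 1.81 ± 0.161. Each of its 5 other probe sets was higher in subclone 3 as well, by 0.47 to 1.56, and no other array of the series reached the Elovl7 level of subclone 3.

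Of 43 angiogenic and growth factor genes, 9 were higher (20.9%) and 7 lower (16.3%) in subclone 3, against 8.89% and 10.1% of all genes. Their median was -0.00, and on the 5 arrays alone 6 were higher and 4 lower. Angpt1, the angiopoietin that activates the Tie2 receptor of blood vessels, averaged 6.30 ± 0.27 in subclone 3 (SD, n = 3) and 4.43 ± 0.02 in subclone 6 (SD, n = 2), a gap wider than the spread of either (difference 1.87 ± 0.124, adjusted p = 9.29e-09). Here subclone 6 was below every array of the other subclones, at the floor, and with a constant of 64 the difference was 0.87. Angpt2, a second ligand of the same receptor, was at 8.87, 8.59 and 8.82 in subclone 3 and 8.04 and 7.77 in subclone 6, a difference of 0.86 ± 0.096. Betacellulin (Btc), an epidermal growth factor receptor ligand, was at 9.07, 8.90 and 9.04 in subclone 3 and 7.76 and 7.72 in subclone 6, a difference of 1.26 ± 0.087. Tgfa and Ereg, which encode further ligands of that receptor, had differences of 1.01 and 0.80, although the other probe sets of Tgfa gave 0.17 and -0.05 and the mean of all of them 0.38. Vegfc and Vegfa, vascular growth factors, were lower, by -0.72 and -0.45, although a second probe set of Vegfa, at 7.90 and 7.91, gave -0.01.

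Among the ERK pathway output genes, which such receptors induce, 5 of 23 were higher (21.7%) and 3 lower (13.0%). Over all genes, the shares were 8.89% and 10.1%. The phosphatase gene Dusp5 (0.88), the transcription factor gene Egr1 (0.57) and Dusp4 (0.46) were higher. Spry1, a feedback inhibitor of the pathway, was at 7.44, 7.20 and 6.95 in subclone 3 and 8.12 and 7.94 in subclone 6, a difference of -0.83 ± 0.116 (adjusted p = 5.45e-05). Without subclone 6 replicate 2, 3 members were higher and 5 lower, and Egr1 did not pass.

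Of 33 measured genes for secreted factors tied to cachexia or to adipocytes, 6 were higher (18.2%) and 4 lower (12.1%). The shares over all genes were 8.89% and 10.1%, and the median of the list was 0.08. Besides Bmp2, a mark of the pair, the higher genes were Nppb, a natriuretic peptide gene, Slit2, a guidance ligand, and the gp130 cytokine gene Il11. Lcn2, which encodes lipocalin 2, and Tnfsf11, encoding RANKL, were the others. The other probe sets of Slit2 gave -0.17 and 0.07, under the floor, and by the mean of all of them (0.22) Slit2 did not pass. Nppb was at 7.21, 6.84 and 7.19 in subclone 3 and 6.14 and 6.23 in subclone 6, a difference of 0.90 ± 0.107 (limma adjusted p = 1.05e-05). Il11 was at 9.47, 9.23 and 9.37 in subclone 3 and 8.64 and 8.65 in subclone 6, a difference of 0.71 ± 0.096. Lcn2 was at 10.42, 10.55 and 10.46 in subclone 3 and 9.81 and 9.77 in subclone 6, a difference of 0.68 ± 0.067. The arrays of the pair did not overlap in these 3 genes, as in 39.5% of all genes. The lower members were Tslp (-0.46), Vegfa (-0.45, but -0.01 by its second probe set), Tnf (-0.37) and Adm (-0.33). Members passing as lower were 2 without subclone 3 replicate 2 or subclone 6 replicate 2, and 1 without subclone 6 replicate 1. Lif, Il6, Ccl2 and Il33 did not pass.

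Genes of the matrix were among the lower ones. Of 54 genes for collagens and other matrix proteins, 17 were lower (31.5%) and 3 higher (5.56%), against 10.1% and 8.89% of all genes. Their median was -0.18, against -0.01 over all genes. Col6a2, a chain of collagen VI, was at 7.47, 7.70 and 7.38 in subclone 3 and 9.45 and 9.50 in subclone 6 (difference -1.96 ± 0.079, limma adjusted p = 1.45e-11). Col6a1, its neighbour on chromosome 10, was at 8.62, 8.90 and 8.62 in subclone 3 and 10.29 and 10.23 in subclone 6, a difference of -1.54 ± 0.070. The third chain, Col6a3, was near the floor in both and did not pass (adjusted p = 0.334).

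Decorin (Dcn) and lumican (Lum), small proteoglycans that bind collagen fibrils and are encoded side by side on chromosome 10, were both lower in subclone 3. Dcn was at 9.95, 10.25 and 10.05 in subclone 3 and 11.31 and 11.38 in subclone 6, a difference of -1.26 ± 0.081. Lum was at 4.93, 4.95 and 4.53 in subclone 3, under the floor, and 6.28 and 6.10 in subclone 6, a difference of -1.38 ± 0.106. The adhesive proteins Thbs1, Fbln1 and Tgfbi had differences of -0.97, -0.81 and -0.74, with 1 other probe set of Tgfbi at 0.08. Npnt, nephronectin of epithelial basement membranes, was the largest of the 3 higher genes, at 7.29, 7.11 and 7.33 in subclone 3 and 6.14 and 6.19 in subclone 6 (1.08 ± 0.093). In 15 of the 17 lower matrix genes, subclone 3 lay further than subclone 6 from the median of the other 6 subclones. It did so in 2441 of all 3461 genes passing in either direction. Fitted on the 5 arrays of the pair alone, 8 matrix genes passed as lower.

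Proteases and their inhibitors moved in both directions, with 8 of 38 higher (21.1%) and 9 lower (23.7%), against 8.89% and 10.1% of all genes. Mmp9, gelatinase B, was at 5.86, 5.77 and 5.92 in subclone 3 and 8.09 and 7.88 in subclone 6 (difference -2.14 ± 0.088, adjusted p = 1.71e-11), and a second probe set gave -1.17. The collagenase gene Mmp13, in the same cluster on chromosome 9 as Mmp12, did not pass (difference -0.01, adjusted p = 0.960), and Mmp3 there differed by 0.18. Adam19 and Adam8, membrane proteases that shed surface proteins, had differences of 1.23 and 1.03. Serpinb2, an inhibitor of plasminogen activators, and Plaur, the urokinase receptor, had differences of 1.05 and 0.56.

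The genes Ptn, Cdon and Gli2 were also called lower in subclone 3. Ptn, the growth factor pleiotrophin, was at 8.65 to 9.17 in subclone 3 and 10.80 and 10.61 in subclone 6, a difference of -1.77 ± 0.156. The other probe sets of Ptn gave -1.86 and -0.02, the latter at 6.51 in subclone 3 and 6.54 in subclone 6. Cdon, a surface co-receptor for Hedgehog proteins, was at 6.76, 6.95 and 6.99 in subclone 3 and 8.87 and 8.80 in subclone 6, a difference of -1.93 ± 0.068. Gli2, a transcription factor of the Hedgehog pathway, was at 7.08, 7.29 and 7.14 in subclone 3 and 8.57 and 8.52 in subclone 6, a difference of -1.37 ± 0.077. For all 3 genes, subclone 3 was below every other array of the series. The co-receptor gene Gas1 was also lower (-0.74), whereas Gli1, Gli3, Ptch1 and Boc did not pass.

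Several of the lowest differences came from genes that were at the floor in subclone 3. Glrb, the beta subunit of the glycine receptor, was at 4.95, 4.90 and 4.92 in subclone 3 and 8.01 and 8.21 in subclone 6 (difference -3.19 ± 0.130, limma adjusted p = 1.45e-11). Zfp503, a zinc finger gene, was at 4.48, 4.36 and 4.29 in subclone 3 and 7.22 and 7.27 in subclone 6 (-2.86 ± 0.110). Hoxb5os, a long non-coding RNA of the Hoxb cluster, was at 5.17, 5.32 and 5.07 in subclone 3 and 8.02 and 7.97 in subclone 6 (-2.81 ± 0.085). For Glrb, subclone 3 was below and subclone 6 above every array of the other 6 subclones. The Hoxb genes around Hoxb5os differed less: Hoxb3 by -0.34 (adjusted p = 0.00105), whereas Hoxb2, Hoxb4, Hoxb5 and Hoxb6 did not pass.

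Of the same kind were Tmem98 (-2.56), the phosphatase gene Ptpn13 (-2.40), the pluripotency gene Dppa4 (-2.08) and Mageh1 (-2.45). A second probe set of Ptpn13, at 5.50 in subclone 3 and 5.52 in subclone 6, gave -0.02, and the mean of its probe sets gave -1.21. Smarca1, an ATPase that moves nucleosomes, was at 5.18, 5.01 and 5.25 in subclone 3 and 7.20 and 7.19 in subclone 6, a difference of -2.05 ± 0.130. Here subclone 6 stood out, since the other 6 means lay between 4.29 and 5.77. With a constant of 64, the differences of Glrb, Zfp503 and Ptpn13 were -2.05, -1.53 and -1.17, and with a constant of 1 they were -4.09, -4.58 and -4.26.

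Most of the defence and inflammation genes that passed were lower in subclone 3. Saa3, an acute-phase protein gene, was at 8.55, 8.99 and 8.73 in subclone 3 and 10.88 and 10.80 in subclone 6 (difference -2.08 ± 0.090, limma adjusted p = 3.13e-11). The other 6 subclones were at 10.12 to 12.06, all above subclone 3. Ceruloplasmin (Cp), which carries copper, was at 11.67, 11.90 and 11.73 in subclone 3 and 12.70 and 12.54 in subclone 6, a difference of -0.86 ± 0.065. Ccl20, a chemokine gene, had a difference of -1.29, and subclone 3 was below every other array. Of 32 acute-phase and innate defence genes, 2 were higher (6.25%) and 6 lower (18.8%), against 8.89% and 10.1% of all genes. In all 6 lower ones, subclone 3 lay further from the other 6 subclones, as in 2441 of all 3461 passing genes. Fitted on the 5 arrays alone, 1 was higher and 4 lower. Of 48 cytokine and chemokine genes, 5 were higher (10.4%) and 8 lower (16.7%), against the same shares of all genes. In the fit on the 5 arrays alone, 2 were higher and 2 lower. The inflammatory caspase genes Casp4 and Casp12, neighbours on chromosome 9, had differences of -1.12 and -1.38.

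Receptors and regulators of cytokine signalling through JAK and STAT proteins were higher for 2 of 34 genes (5.88%) and lower for 7 (20.6%). All genes gave 8.89% and 10.1%. Socs2, an inhibitor of growth hormone signalling, was at 8.06, 7.93 and 8.02 in subclone 3 and 6.96 and 6.96 in subclone 6 (difference 1.05 ± 0.103, adjusted p = 1.25e-06), with the other 6 means at 5.26 to 6.08. One more probe set of Socs2 gave 0.92, and 4 gave -0.51 to 0.10. Socs3, an inhibitor of gp130 signalling, was lower by -0.55, as were the receptor genes Ifngr1 (-0.71), Il6ra (-0.64) and Osmr (-0.61). The other probe sets of Osmr gave 0.34 and -0.01, and by the mean of all of them (-0.09) it did not pass. With the mean of all probe sets, 6 genes of this list were higher, and 1 was higher without subclone 3 replicate 1 or 3 or subclone 6 replicate 1.

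Interferon-stimulated genes were lower for 13 of 44 measured members (29.5%) and higher for 2 (4.55%), against 10.1% and 8.89% of all genes. Their median was -0.11, and 11 members were under the floor in both subclones. Irf1, a transcription factor induced by interferon gamma, was at 8.83, 9.20 and 8.89 in subclone 3 and 9.70 and 9.65 in subclone 6 (difference -0.70 ± 0.076, limma adjusted p = 3.57e-06). Usp18 (-0.74), Cxcl10 (-0.64), Gbp7 (-0.55) and Gbp2 (-0.51) were lower too, each at a low level. In 12 of the 13 lower members, subclone 3 lay further from the other 6 subclones, as in 2441 of all 3461 passing genes. In 6 of the 13, subclone 3 was the lowest of the 8. Without subclone 6 replicate 1, 6 members were lower, and Gbp2 and Gbp7 were not among them. On the 5 arrays alone, 2 were lower. Of 20 genes of antigen presentation by MHC class I, 4 were lower (20%, against 10.1% of all genes) and none higher. Without subclone 3 replicate 1 or 3, 2 were lower, and none on the 5 arrays alone.

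Trim30a and Trim30d, neighbouring genes of the same family on chromosome 7, went the other way. Trim30a, a regulator of innate immune signalling in mouse, was at 6.67, 6.86 and 6.72 in subclone 3 and 5.34 and 5.54 in subclone 6 (difference 1.31 ± 0.105, adjusted p = 9.17e-08). Trim30d was at 6.34, 6.19 and 6.14 in subclone 3 and 4.76 and 4.50 in subclone 6, a difference of 1.59 ± 0.113. A second probe set gave 1.01 for Trim30a and 0.16 for Trim30d. The 2 genes are similar in sequence, and whether their probes also bind RNA of the other was not tested.

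The upstream sequences of Trim30a, Trim30d, Gbp2 and Gbp7 are shown because all hold letters of the interferon-stimulated response element although the genes differ in opposite directions. Each line gives the 100 bases before the most upstream gene start (RefSeq, GRCm38.p6), with TTTCNNTTT in capitals. They lie at chr7:104465194-104465293 (minus strand), chr7:104507850-104507949 (minus), chr3:142620563-142620662 (plus) and chr3:142530236-142530335 (plus).
Trim30a: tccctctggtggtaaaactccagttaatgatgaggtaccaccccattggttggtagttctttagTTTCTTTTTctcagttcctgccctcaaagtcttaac
Trim30d: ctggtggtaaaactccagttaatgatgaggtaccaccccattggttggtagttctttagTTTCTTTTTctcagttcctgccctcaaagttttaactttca
Gbp2: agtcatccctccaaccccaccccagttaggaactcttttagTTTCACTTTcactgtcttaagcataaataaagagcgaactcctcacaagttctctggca
Gbp7: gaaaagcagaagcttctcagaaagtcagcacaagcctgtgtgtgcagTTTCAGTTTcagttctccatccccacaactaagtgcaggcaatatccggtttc
The matches start 36, 41, 59 and 53 bases before the gene starts of Trim30a, Trim30d, Gbp2 and Gbp7. Aligned without gaps, the windows of Trim30a and Trim30d were identical at 94 of 95 bases. On both strands, these letters occur in 3.26% of 32851 windows of this length and in 9.37% of windows of 250 bases. Within 250 bases, they were found in 6 of the 9 lower interferon-stimulated genes that have a listed promoter, and in 11 of the 21 that did not pass. A match describes the sequence and shows no binding.

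Many genes of antioxidant defence were higher in subclone 3. Of 35 NRF2 targets and glutathione genes, 18 were higher (51.4%) and 1 lower (2.86%), against 8.89% and 10.1% of all genes. The median was 0.18, and none was under the floor in both subclones. NRF2 is a transcription factor that induces detoxifying enzymes when cells are under oxidative stress. Cbr3, a carbonyl reductase, was at 10.92, 10.79 and 10.91 in subclone 3 and 9.74 and 9.66 in subclone 6 (difference 1.17 ± 0.052, limma adjusted p = 4.35e-11). Gsta4, a glutathione S-transferase, was at 11.76, 11.47 and 11.63 in subclone 3 and 10.88 and 10.82 in subclone 6, a difference of 0.77 ± 0.065. Gclm, the modifier subunit of the enzyme that starts glutathione synthesis, was at 11.30, 10.95 and 11.08 in subclone 3 and 10.44 and 10.26 in subclone 6, a difference of 0.76 ± 0.092. The arrays of the pair did not overlap in these genes, as in 39.5% of all genes.

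The related transferases Gsta2 and Gsta3 had differences of 1.47 and 1.04 at low levels, and binding of one gene's probes to RNA of the other was not tested. Ephx1, Mgst1, Srxn1, Taldo1 and Nqo1, further enzymes of detoxification and redox balance, had differences of 0.76, 0.63, 0.59, 0.56 and 0.48. Aox1, an aldehyde oxidase, was the lower gene (-0.51), and 2 were lower without subclone 3 replicate 2 or subclone 6 replicate 2. Subclone 3 lay further from the other 6 subclones in 15 of the 18 higher genes and was the highest of the 8 in 8 of them. Over all passing genes, it lay further in 2441 of 3461. The mean level of the list was 10.47 to 10.54 on the arrays of subclone 3 and 10.19 to 10.26 on those of subclone 6. On the 5 arrays alone, 9 passed as higher.

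The tumour suppressor p53 induces cell cycle inhibitors and death genes after DNA damage. Its targets were higher for 16 of 33 genes (48.5%) and lower for 1 (3.03%), against 8.89% and 10.1% of all genes. The median of the list was 0.19. Mdm2, which marks p53 for degradation, was at 11.18, 10.91 and 11.01 in subclone 3 and 10.41 and 10.42 in subclone 6 (difference 0.62 ± 0.071, limma adjusted p = 6.47e-06). Btg2, which restrains proliferation, was at 8.11, 8.12 and 8.05 in subclone 3 and 7.32 and 7.37 in subclone 6, a difference of 0.75 ± 0.088. Cdkn1a, which encodes the cell cycle inhibitor p21, was at 12.13, 12.14 and 12.14 in subclone 3 and 11.90 and 11.83 in subclone 6, a difference of 0.27 ± 0.037. The arrays of the pair did not overlap in these genes, as in 39.5% of all genes.

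Eda2r, a death receptor gene (0.77), Aen (0.65), Plk3 (0.61), Ak1 (0.58), Trp53inp1 (0.49) and Pmaip1 (0.45) were higher as well, and Ddit4, also a hypoxia gene, was lower (-0.41). Unlike the NRF2 targets, the 16 higher p53 targets had subclone 6 further from the other 6 subclones in 15. Over all passing genes, subclone 6 lay further in 1020 of 3461. Among the 16, subclone 6 was the lowest of the 8 in 9. List means by array were 9.04 to 9.05 in subclone 3 and 8.78 to 8.82 in subclone 6, and 8.81 to 9.39 in the other 6 subclones. On the 5 arrays alone, 9 passed as higher.

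**Figure D3:**
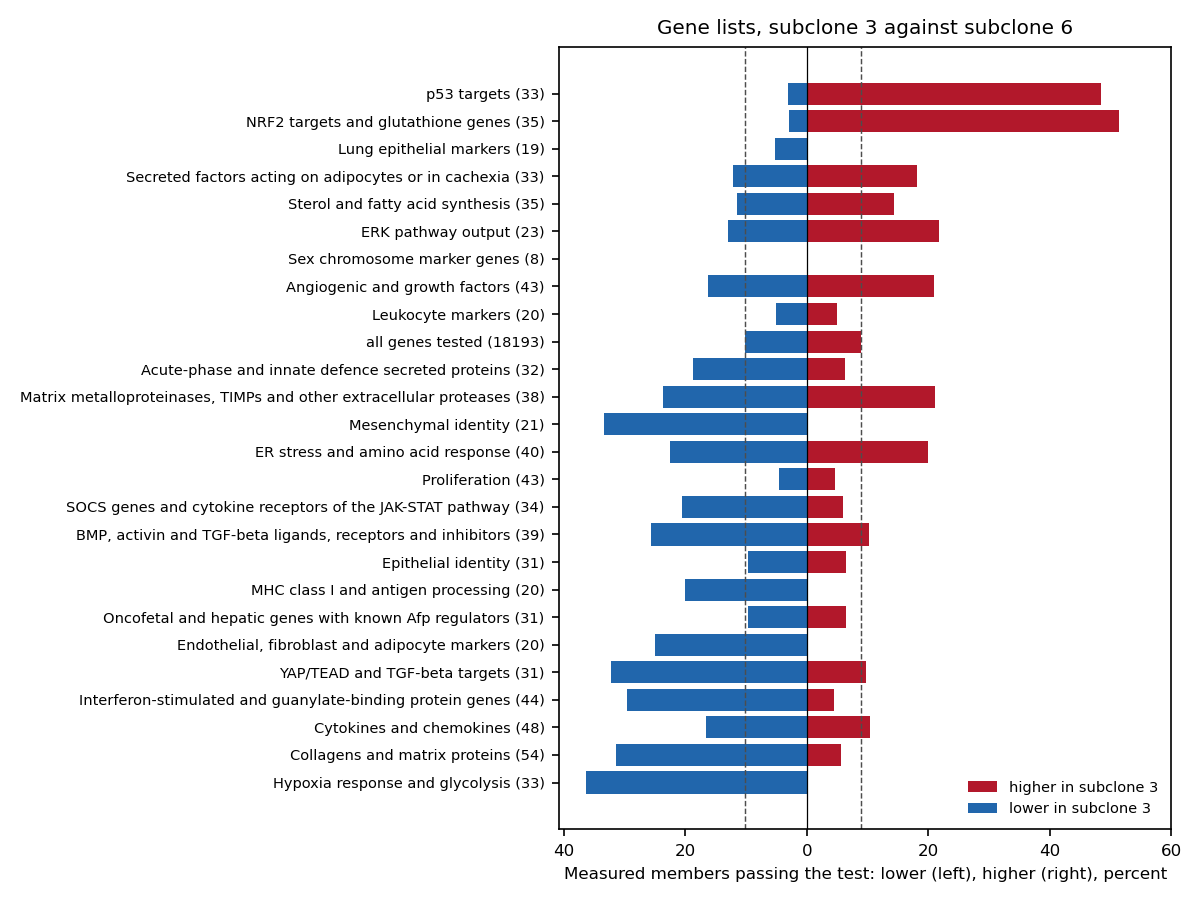
Share of the measured members of each gene list (number in brackets) that passed at an adjusted p under 0.05, in percent, with members higher in subclone 3 to the right (red) and lower to the left (blue). Lists are ordered by median difference, and dashed lines mark the shares over all genes, 8.89% and 10.1%; p53 and NRF2 targets lie at the top, hypoxia and matrix genes at the bottom.

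Genes of the hypoxia response and glycolysis were lower for 12 of 33 members (36.4%, against 10.1% of all genes) and higher for none. The median was -0.21. Egln1, an oxygen sensor that marks hypoxia-inducible factors for degradation, was at 10.25, 10.46 and 10.35 in subclone 3 and 11.18 and 11.09 in subclone 6 (difference -0.78 ± 0.088, limma adjusted p = 5.41e-06). Ankrd37 was at 8.09, 8.14 and 8.27 in subclone 3 and 8.87 and 8.68 in subclone 6, a difference of -0.61 ± 0.108. Hexokinase 2 (Hk2), the first enzyme of glycolysis, was at 11.41, 11.48 and 11.40 in subclone 3 and 11.87 and 11.86 in subclone 6, a difference of -0.44 ± 0.067. The arrays of the pair did not overlap in these genes either, as in 39.5% of all genes.

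The collagen hydroxylase gene P4ha2 (-0.58) and the mitophagy receptor gene Bnip3 (-0.35) were lower too. Subclone 6 lay further from the other 6 subclones in 8 of the 12, and was the highest of the 8 in 3. Over all passing genes, it lay further in 1020 of 3461. Without subclone 6 replicate 1, 1 gene was higher. On the 5 arrays alone, 4 were lower.

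Other lists divided more evenly. Of 43 proliferation genes, 2 were higher and 2 lower, 4.65% each, against 8.89% and 10.1% of all genes. The mean level of the list was 9.87 to 9.94 on the arrays of subclone 3 and 9.87 to 9.95 on those of subclone 6. The higher genes were E2f8 (0.41) and Pcna (0.16), and the lower ones Mcm3 (-0.33) and Mcm6 (-0.20), all of DNA replication and its control. Endoplasmic reticulum stress and amino acid response genes were higher for 8 of 40 (20%) and lower for 9 (22.5%). Among these, the serine and asparagine synthesis genes Asns (0.51), Psat1 (0.41) and Psph (0.34) were higher, whereas the chaperone genes Dnajb9 (-0.42) and Dnajc3 (-0.28) and Sel1l (-0.32), of protein disposal, were lower, although the 4 other probe sets of Sel1l gave -0.03 to 0.22. Of 35 sterol and fatty acid synthesis genes, 5 were higher (14.3%), led by the acetyl-CoA synthetase gene Acss2 (0.55), and 4 lower (11.4%). The reticulum stress counts were 5 higher without subclone 6 replicate 2, 5 lower without its replicate 1, and 0 in both directions on the 5 arrays alone. For sterol genes, 3 were higher without subclone 6 replicate 2, and for proliferation genes 5 were higher without subclone 3 replicate 2 and 1 without either array of subclone 6.

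Targets of YAP and TGF-beta were lower for 10 of 31 (32.3%) and higher for 3 (9.68%), against 10.1% and 8.89% of all genes. The lower genes included Amotl2 (-0.58), Skil (-0.57) and Ankrd1 (-0.56), the cardiac ankyrin repeat protein gene. Of 21 mesenchymal genes, 7 were lower (33.3%) and none higher, and 1 was lower on the 5 arrays alone. Among the 7 were the PDGF receptor genes Pdgfrb (-0.85) and Pdgfra (-0.44), Snai1 (-0.54) and Zeb1 (-0.28). Of the 21, 6 were under the floor in both subclones. Pdgfrb was removed by the filter on low values, and its difference was -2.21 with a constant of 1 and -0.30 with 64. A second probe set of Pdgfrb, under the floor in both, gave 0.04. The transcription factor genes Snai2, Twist1 and Twist2 and the filament gene Vim did not pass, and Vim was at 13.70 to 13.78 in subclone 3 and 13.66 to 13.73 in subclone 6.

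Keratins of simple epithelium were present in both subclones. Krt8 was at 11.28, 11.38 and 11.21 in subclone 3 and 11.19 and 11.17 in subclone 6, and Krt18 at 11.95 to 12.01 in subclone 3 and 11.81 to 11.86 in subclone 6. Cdh1, encoding E-cadherin, was under the floor in both, and Epcam did not pass (difference -0.29, adjusted p = 0.0512). Of 31 epithelial genes, 2 were higher (6.45%) and 3 lower (9.68%), against 8.89% and 10.1% of all genes. With any array of subclone 3 left out, 1 was higher. The same count came from the filter on low values, the mean of all probe sets and the replicate block. On the 5 arrays alone, 1 was higher and 1 lower. Of 19 lung epithelial markers, 10 were under the floor in both and 1 was lower (5.26%). Nkx2-1 was at 4.22 to 4.54 in subclone 3 and 4.10 to 4.42 in subclone 6. Sftpc was at 5.47 to 5.66 in subclone 3 and 5.42 to 5.44 in subclone 6.

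Markers of other cell types were counted in the same way. Of 20 leukocyte markers, 14 were under the floor in both subclones. In this list 1 was higher and 1 lower, 5% each, against 8.89% and 10.1% of all genes. The list mean by array was 5.38 to 5.48 in subclone 3 and 5.38 to 5.44 in subclone 6. Ptprc, Itgam and Cd3e, which define leukocytes, macrophages and T cells, were under or close to the floor on every array of the pair. Cd68, a lysosomal protein abundant in macrophages, was at 8.64, 8.53 and 8.60 in subclone 3 and 7.36 and 7.39 in subclone 6, a difference of 1.21 ± 0.108 (adjusted p = 3.44e-07). Of 20 markers of endothelium, fibroblasts and adipocytes, 5 were lower (25.0%, against 10.1% of all genes) and 13 under the floor in both. The 5 were Dcn and Lum, described above, with Pdgfra, Tie1 and Fap, and the count was 3 without subclone 6 replicate 2. Col1a1, Pecam1 and Adipoq were under or near the floor. In RNA of a whole culture, fewer cells of a kind and less RNA per cell cannot be told apart.

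Each called gene was placed against the other 6 subclones, whose arrays entered the fit only through the spread and the choice of probe set. Subclone 3 lay further from the median of the other 6 in 62 of the 101 genes and subclone 6 in 39. Over all 3461 genes with an adjusted p under 0.05, subclone 3 lay further in 2441 and subclone 6 in 1020. All arrays of subclone 3 lay beyond every other array of the series in 33 genes, and those of subclone 6 in 12, with Glrb and 5430421F17Rik, an unnamed Riken gene, in both sets. Besides the genes named above, subclone 3 stood alone as high in the prostacyclin receptor gene Ptgir and the integrin gene Itgb3, and as low in Slc45a4 and Pmp22, a myelin protein gene. Subclone 6 stood alone as high in the hormone gene Stc1 and in Frzb, a Wnt inhibitor, and as low in the adenosine deaminase gene Ada and the keratin gene Krt73. In 43 called genes, both means lay within the range of the other 6.

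**Figure D4:**
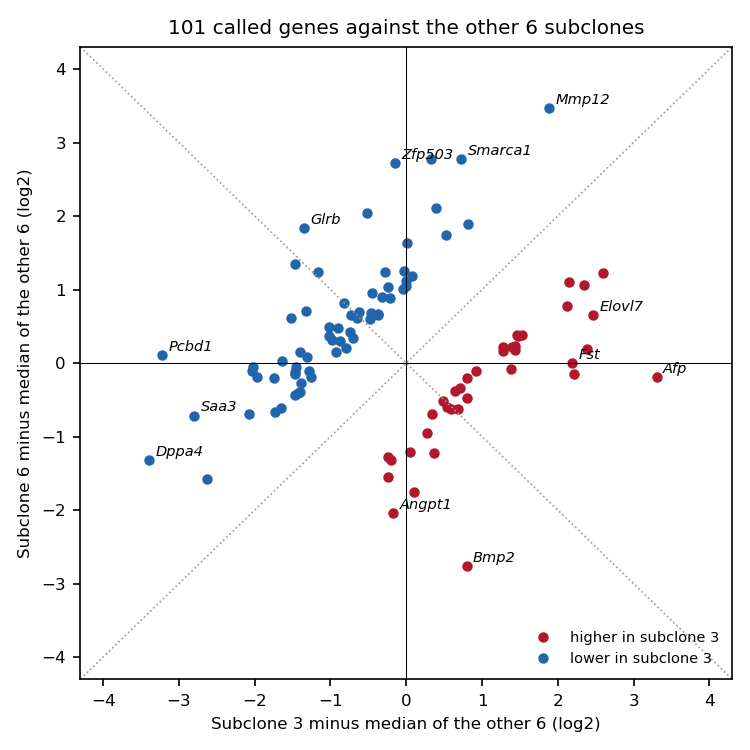
Subclone mean minus the median of the other 6 subclone means (log2) for the 101 called genes, subclone 3 on the horizontal axis and subclone 6 on the vertical. Red points are higher and blue points lower in subclone 3, and dotted lines mark equal distance; Afp, Pcbd1 and Saa3 lie away from 0 along the axis of subclone 3, and Zfp503 and Angpt1 along that of subclone 6.

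A second measure on the same arrays was available for 60 of the called genes. Of 111 other probe sets, 95 had the same sign (85.6%), and 55 of the 62 above the floor. Only 37 of the 111 had the same sign and at least 50% of the difference. Just inside the threshold were Dmc1 (1.00) and Fcna (1.01) on the higher side and Bnc1 (-1.001) and Artn (-1.01) on the lower. Just outside were Scmh1 (1.00 after rounding) and Pdzrn3 (0.98), and Cthrc1 (-0.99) and Epha5 (-0.98). Zfp109 (1.30) did not pass without subclone 6 replicate 2, nor did Cracd (-1.10) without that array or subclone 3 replicate 2 or 3, its arrays of subclone 6 being at 6.33 and 7.48.

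By chromosome, genes with a mean level above 8 had medians near 0 except on a few. On chromosome 18, the median difference of 201 such genes was -0.21, with 4 higher and 119 lower at an adjusted p under 0.05. Against the median of the other 6 subclones, the arrays of subclone 3 were at -0.22, -0.20 and -0.21 there and those of subclone 6 at 0.03 and -0.04. On chromosome 2, which holds Bmp2 and Mmp9, the median of 608 genes was 0.13, with 251 higher and 31 lower. Chromosome 1 had a median of -0.09 over 447 genes, and chromosome 9 one of -0.08 over 408. Called genes did not gather on chromosome 18, which held 1 of the 101, and chromosome 5 held the most, 14 of 1122 genes. Pairs of neighbouring called genes were Col6a2 with Col6a1, Dcn with Lum, Trim30a with Trim30d and Casp4 with Casp12, and the genes of each of these 4 pairs differed in the same direction.

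**Figure D5:**
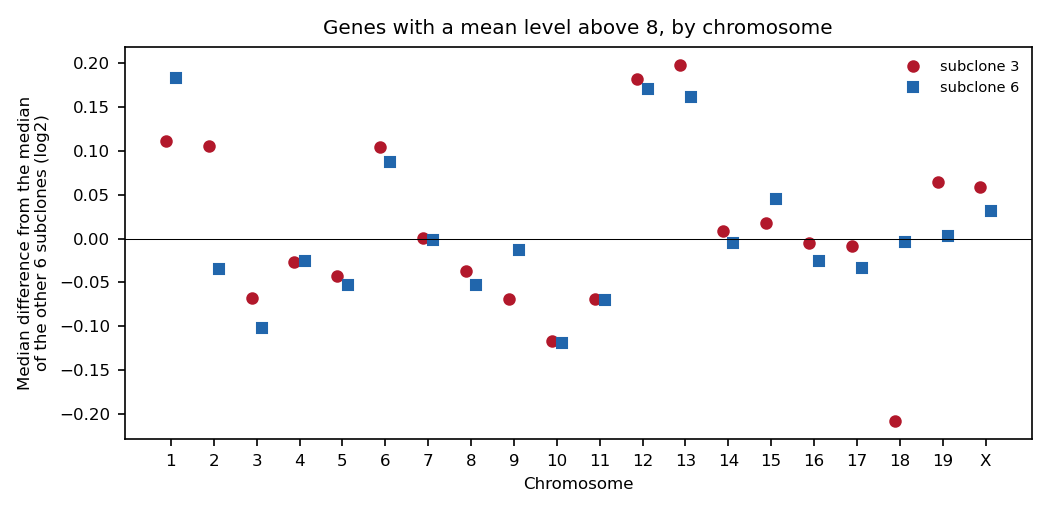
Median difference (log2) of genes with a mean level above 8 from the median of the other 6 subclones, by chromosome, with subclone 3 as red circles and subclone 6 as blue squares. The subclones lie close together on most chromosomes and apart on chromosome 18, at -0.21 for subclone 3, and on chromosome 2, at 0.11 for subclone 3 and -0.04 for subclone 6.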

How the data were processed

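The deposited table gives a linear intensity, made by the authors, for every probe set on every array (0.61 to 17068.52). How these were summarised and scaled is not given in the sources used here. Of 45101 probe sets, 64 controls, 932 with several symbols and 9160 not in the annotation were left out. Symbols were updated by Entrez identifier through RefSeq (GRCm38.p6) for 34741 of 34945 probe sets, and each gene was represented by the probe set with the highest mean over 23 arrays. No pair of arrays held identical values.

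Values were taken as log2(intensity + 16). One mean per subclone was fitted to all 23 arrays by lmFit and eBayes (limma 3.58.1, R 4.3.3), leaving 15 residual degrees of freedom, so the spread comes from all 8 subclones. Subclone 3 minus subclone 6 was the only contrast, with Benjamini-Hochberg adjustment over 18193 genes. The script was tested on simulated data. The number of arrays limits the precision, as subclone 6 has 2.

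The pair, its 3 marks and the 25 gene lists were chosen with earlier results of these data known. Members of a list were counted in each direction by adjusted p under 0.05 only. Names follow a rule: the 3 marks, the 15 largest called differences each way, up to 5 members per list and direction with a difference of at least 0.5, the 2 genes nearest the threshold on each side, and families of called genes. Other names, mostly relatives, further list members and defining markers, were chosen after their values were seen. Alternatives were other constants, a filter on low values, quantile normalization, an intensity trend, the mean of all probe sets, the 5 arrays alone, each array left out and a replicate block.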

Additional observations from a re-analysis of the deposited data

How the results depend on the processing

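The count of called genes depended most on the constant added before the logarithm, which sets how far genes near the floor can differ. With a constant of 1 there were 251 calls (103 higher, 148 lower, 132 with subclone 3 further from the other 6), which included all 101, and with 64 there were 43 (12, 31 and 28), all among the 101. With the mean of all probe sets, 67 genes were called, 24 of them higher, and 64 were shared. On the 5 arrays of the pair alone, calls numbered 97, but list members passing fell to 43 higher and 37 lower, in place of 96 and 129 (each gene counted once). That fit has fewer residual degrees of freedom and takes its spread from the pair alone. The part of each in the fall was not tested. In the same fit, matrix genes lower were 8, p53 targets higher 9, NRF2 targets higher 9 and hypoxia genes lower 4. Leaving out each array in turn, with a lone subclone 6 array assumed to vary like the others, gave 92 to 119 calls, 33 to 47 higher, 58 to 72 lower and 54 to 68 with subclone 3 further. List members were 79 to 98 higher and 97 to 133 lower, matrix genes lower 14 to 21, p53 targets higher 15 to 17, NRF2 targets higher 16 to 17 and hypoxia genes lower 9 to 12. The filter, quantile normalization and the trend gave 94, 101 and 101 calls. With the replicate number as a block there were 98 calls, 97 of them shared. Deviations of same-numbered arrays of the pair correlated at 0.17 and 0.19, over 2 pairs, the second being the highest of 77 such pairs in the series. The 2 values are not independent, since the deviations of the 2 arrays of subclone 6 mirror each other. Across the series the median was -0.01, so the numbers were not taken to pair the samples. Of 2066 values for 160 named genes, 2013 kept their direction and their side of the limit on the adjusted p alone. The other 53, in 27 genes, no longer passed that limit, and none reversed. The size of the difference did not enter this tally, so a called gene that fell under the required difference still counted as kept.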
